A study of Mus musculus with 6 samples.

Results

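The sarcomeric myosin heavy chain (MyHC) genes Myh1, Myh2, Myh3, Myh4, Myh6, Myh7, Myh7b and Myh8 were examined in RNA-seq libraries of mouse satellite cells (SCs), the stem cells of skeletal muscle. They were chosen by name, as heavy chains that build thick filaments of skeletal and cardiac sarcomeres, and make up 8 of the 35976 genes in the table. There were 3 libraries of each genotype, NF-YA cKO and the control NF-YA fl/fl. Every mouse carried LoxP sites around a part of the gene for NF-YA, the regulatory subunit of the CCAAT-binding factor NF-Y, and every mouse received tamoxifen. NF-YA cKO mice also carried a Pax7-CreERT2 allele, meant to remove the floxed part in cells that expressed Pax7. By the paper, NF-YA was lost in most but not all SCs of such mice. NF-YA fl/fl mice had no Cre and thus do not control for Cre activity. The labels give mice 5 to 7 weeks old, the methods of the study male mice of 6 to 8 weeks with 5 daily injections and a harvest 7 days after the last one, and the cells were collected after 4 days in growth medium. The comparison of the genotypes asked which genes depended on NF-YA in cultured SCs.

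Each myosin heavy chain holds the motor domain that binds actin and splits ATP, and a long coiled tail through which the chains pack into thick filaments. Muscle uses a family of such genes in turn: the embryonic (Myh3) and perinatal (Myh8) chains mark developing and regenerating fibers, the fast chains IIx/d (Myh1), IIa (Myh2) and IIb (Myh4) and the slow chain (Myh7) mark adult fiber types, the alpha chain (Myh6) belongs to the heart, and Myh7b is an older relative expressed in slow and specialized muscle. SCs and proliferating myoblasts hardly express these genes, which are switched on when myoblasts exit the cell cycle, differentiate and fuse.

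The libraries held 26936230 to 41118984 expected counts. At this depth 3 counts are worth 0.0730 to 0.111 CPM, the counts relative to library size. The entry for the deleted Nfya transcript received 22.3% to 34.2% of the Nfya counts in NF-YA cKO and 0 in all 3 NF-YA fl/fl libraries. The other Nfya counts in NF-YA cKO went to undeleted entries, so some intact Nfya mRNA remained in these libraries. Xist was at 836 to 852 CPM in NF-YA cKO and at 0.306 to 0.475 CPM in NF-YA fl/fl. The Y-linked genes Ddx3y, Eif2s3y, Kdm5d and Uty were at 0 to 0.141 CPM in NF-YA cKO and at 37.3 to 88.6 CPM in NF-YA fl/fl. All 3 NF-YA cKO libraries thus had the pattern of female mice and all 3 NF-YA fl/fl libraries that of male mice. The methods describe male mice only. Any effect of sex therefore cannot be told apart from the genotype. The labelled cell type had its markers: summed over the 8 SC and myoblast markers Pax7, Myf5, Myod1, Cdh15, Megf10, Fgfr4, Chodl and Msc, the TPM was 469 to 509 in NF-YA cKO and 414 to 840 in NF-YA fl/fl, although Chodl and Msc stayed at or below 0.150 TPM. Most of this sum was Myod1, and single markers went both ways. Pax7 was at 30.9 to 42.8 TPM in NF-YA cKO and at 15.9 to 23.3 TPM in NF-YA fl/fl (log2 fold change 0.94, not called). Megf10 and Fgfr4 were lower in NF-YA cKO without overlap and not called, while Myf5 and Myod1 overlapped. Of the 6 tested, only Cdh15 was called, lower (-1.78), beside 7.67% of all genes tested. The 8 macrophage markers summed to 136 to 263 TPM in NF-YA cKO, mostly from Lyz2, and to 3.55 to 13.3 TPM in NF-YA fl/fl, and 7 of the 8 were called higher in NF-YA cKO, beside 4.65% of all genes tested. Summed markers of endothelial cells, fibro-adipogenic progenitors and smooth muscle or pericytes overlapped between the genotypes, but single markers within these sums went both ways. The endothelial marker Kdr was called higher (log2 fold change 2.67), beside 4.65% of all genes tested. Vwf, also endothelial, was called lower (-1.42), beside 7.67%. No other tested marker of these cell types was called. Among those, Dcn was higher and Rgs5 and Notch3 lower in NF-YA cKO without overlap. Summed Schwann cell markers were lower in NF-YA cKO (89.0 to 112 TPM against 231 to 357 TPM), mostly from Ncam1, which myoblasts also express. Sox10, a transcription factor of Schwann cells, was called higher. The part of these cells in the results below was not tested, and in bulk libraries fewer cells of a type and less RNA per cell cannot be told apart.

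The 5 developmental and fast genes lie in a row on the plus strand of chromosome 11 (GRCm38.p6), in the order Myh3 (67078273 to 67102291), Myh2 (67171027 to 67197517), Myh1 (67200102 to 67224577), Myh4 (67237812 to 67260447) and Myh8 (67277124 to 67308634), a span of 230362 bases. Myh6 (54941921 to 54968017) and Myh7 (54970684 to 54994626) lie side by side on the minus strand of chromosome 14. Myh7b lies alone on the plus strand of chromosome 2 (155611243 to 155634307). The sequences before the start sites are shown because the gene deleted here codes for a CCAAT-binding subunit and because the genes moved together. All 8 genes matched a RefSeq promoter of GRCm38.p6, of which the 250 bases before the annotated start site were read, 5′ to 3′ on the strand of the gene. Myh3, Myh6 and Myh7 have more than 1 annotated start, of which 1 was used. Capitals mark a CCAAT on either strand, an E-box of the MyoD family (CANNTG, the same on both strands), a match to the MEF2 motif, and a run of 14 bases described after the sequences. The 6 windows printed are those of the 5 genes of chromosome 11 and of Myh7, the third gene with a CCAAT.
Myh3, chr11:67078050-67078299, plus strand: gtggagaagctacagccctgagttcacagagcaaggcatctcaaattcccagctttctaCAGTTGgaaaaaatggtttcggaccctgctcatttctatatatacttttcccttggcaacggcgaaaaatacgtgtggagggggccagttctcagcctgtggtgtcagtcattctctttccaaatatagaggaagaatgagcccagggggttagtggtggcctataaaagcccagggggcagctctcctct
Myh2, chr11:67170777-67171026, plus strand: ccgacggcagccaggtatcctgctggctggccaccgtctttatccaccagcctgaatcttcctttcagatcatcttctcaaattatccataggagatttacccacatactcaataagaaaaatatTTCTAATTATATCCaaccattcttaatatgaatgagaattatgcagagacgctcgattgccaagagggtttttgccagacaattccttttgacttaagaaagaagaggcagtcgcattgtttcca
Myh1, chr11:67199852-67200101, plus strand: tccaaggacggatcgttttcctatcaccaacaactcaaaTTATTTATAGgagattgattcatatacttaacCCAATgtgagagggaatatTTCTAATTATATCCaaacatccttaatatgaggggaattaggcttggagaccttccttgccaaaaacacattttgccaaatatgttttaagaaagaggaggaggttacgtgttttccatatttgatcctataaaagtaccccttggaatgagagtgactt
Myh4, chr11:67237562-67237811, plus strand: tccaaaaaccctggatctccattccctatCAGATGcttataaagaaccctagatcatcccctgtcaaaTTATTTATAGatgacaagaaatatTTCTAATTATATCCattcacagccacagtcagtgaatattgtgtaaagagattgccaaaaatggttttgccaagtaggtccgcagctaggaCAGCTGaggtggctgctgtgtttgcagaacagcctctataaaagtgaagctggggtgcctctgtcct
Myh8, chr11:67276874-67277123, plus strand: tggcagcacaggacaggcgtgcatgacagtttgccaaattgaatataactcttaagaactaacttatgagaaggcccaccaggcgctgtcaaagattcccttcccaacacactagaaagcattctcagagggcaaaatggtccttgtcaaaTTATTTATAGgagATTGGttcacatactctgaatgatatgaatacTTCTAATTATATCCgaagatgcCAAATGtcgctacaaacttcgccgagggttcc
Myh7, chr14:54994627-54994876, minus strand: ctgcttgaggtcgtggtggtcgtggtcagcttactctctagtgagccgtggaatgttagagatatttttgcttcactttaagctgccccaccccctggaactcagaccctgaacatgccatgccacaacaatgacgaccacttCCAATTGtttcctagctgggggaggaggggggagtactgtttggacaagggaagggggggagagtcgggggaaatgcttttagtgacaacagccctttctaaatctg

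A CCAAT on either strand was found in the windows of Myh1 (first base at -179 from the start site), Myh8 (-86) and Myh7 (-107), or 3 of 8 genes, and in 34.5% of the windows of all 27025 genes with a promoter sequence. In Myh7 it overlapped a CANNTG at -106. CANNTG was found in 6 of 8 windows, all but those of Myh1 and Myh2, and in 66.0% of all windows. Its form CAGCTG was in 1 of 8 windows, that of Myh4, and in 12.8% of all windows. CATTCC on either strand, which is not capitalized, was in 4 of 8 windows (Myh1, Myh4, Myh6 and Myh7) and in 12.6% of all windows. A MEF2 match was found in Myh1, Myh4 and Myh8, and in 3.01% of all windows. In these 3 genes the match had the same letters, TTATTTATAG, at -211, -182 and -99, and this run or its reverse complement was in 34 of the 27025 windows. The longest run of bases shared by at least 4 of the 8 windows was TTCTAATTATATCC, at -160 in Myh1, -125 in Myh2, -158 in Myh4 and -54 in Myh8. These 4 windows were the only ones among the 27025 that held it on either strand. Both runs were chosen after the sequences were seen. TATAAA, searched on the strand of the gene only, was at -32 in Myh1, -29 in Myh3 and -31 in Myh4, with a further match at -213 in Myh4, and in 8.12% of all windows. A match describes letters and not a bound site, and a window without one says nothing about the factor.

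In NF-YA cKO all 8 heavy chain mRNAs were lower, by a log2 fold change of -3.59 (Myh2) to -8.96 (Myh8, 498-fold). Their summed TPM, a level per transcript length that can be added over genes, was 2.35, 4.07 and 6.84 in the NF-YA cKO libraries and 1786, 1663 and 1210 in the NF-YA fl/fl libraries. They took 0.00123% to 0.00381% of all counts in NF-YA cKO and 0.725% to 0.914% in NF-YA fl/fl. A gene was called at an FDR (Benjamini-Hochberg, over all genes tested) under 0.01 in the quasi-likelihood test of edgeR and a log2 fold change below -1 or above 1. All 8 genes passed the low-count filter (more than 10 counts in at least 2 libraries) and were called lower, beside 7.67% of the 17348 genes tested. Myh6 and Myh7b passed it only through the NF-YA fl/fl libraries and so could be tested only because they were high there. The other 6 were above 10 counts in 2 or 3 NF-YA cKO libraries and were called lower, as were 6.06% of the 16280 genes that passed the filter in NF-YA cKO. In all 8 genes the CPM of the NF-YA cKO libraries lay below those of all NF-YA fl/fl libraries, beside 26.2% of the genes tested. The median log2 fold change of the 8 was -7.35, against -0.02 over all genes tested.

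**Figure D1:**
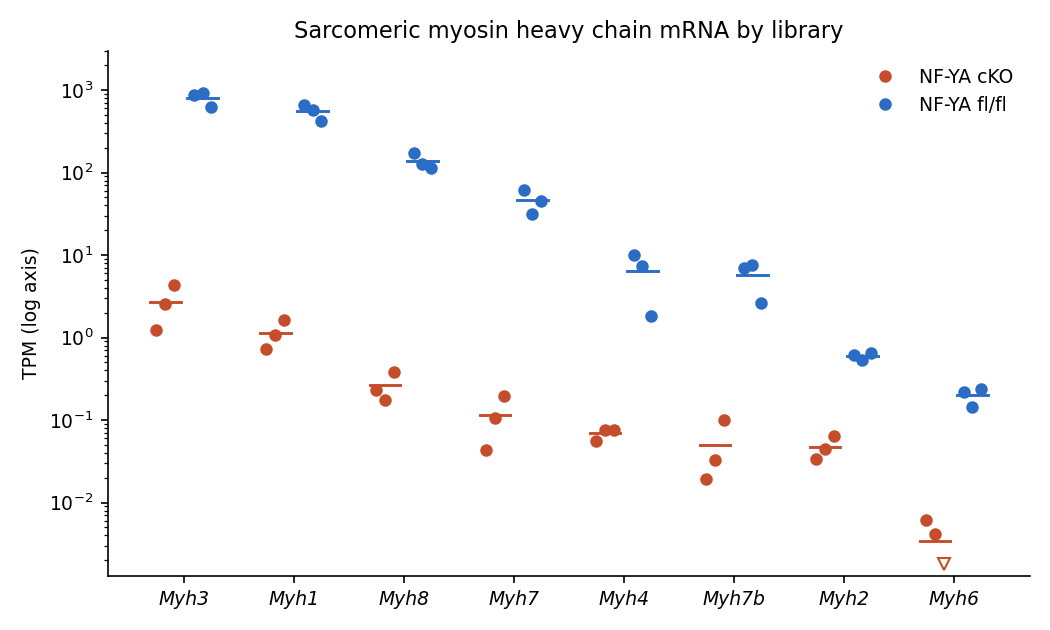
TPM (log axis) of each sarcomeric heavy chain in the 3 NF-YA cKO (red) and 3 NF-YA fl/fl (blue) libraries, with replicates 1 to 3 from left to right, the mean as a bar, and an open triangle near the lower edge for a value of 0. The groups are apart for all 8 genes, with the narrowest distance, 8.31-fold, in Myh2.

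By mean TPM the developmental chain Myh3 was above and Myh8 below the fast chain Myh1 in both genotypes. Myh3, the embryonic chain, was at 1.24, 2.57 and 4.37 TPM in NF-YA cKO replicates 1, 2 and 3 and at 867, 917 and 625 TPM in the NF-YA fl/fl replicates. The groups were far apart, and the lowest NF-YA fl/fl library was 143-fold above the highest NF-YA cKO library. The log2 fold change was -8.09 (SE 0.55, edgeR FDR = 0.00019). Myh8, the perinatal chain, was at 0.229, 0.173 and 0.387 TPM in NF-YA cKO and at 175, 127 and 113 TPM in NF-YA fl/fl. These groups were 292-fold apart at their nearest libraries, the widest distance of the 8 genes. Its log2 fold change of -8.96 (SE 0.38, edgeR FDR = 5.06e-05) was the 9th most negative of the 17348 genes tested, and that of Myh3 the 24th.

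Among the fast chains, Myh1 was the main mRNA. This gene, which codes for the IIx/d chain, was at 0.726, 1.07 and 1.64 TPM in NF-YA cKO and at 665, 571 and 421 TPM in NF-YA fl/fl. The nearest libraries of the genotypes were 257-fold apart, and the log2 fold change was -8.81 (SE 0.41, edgeR FDR = 5.72e-05), the 11th most negative. Myh4, the IIb chain of the fastest fibers, was at 0.0554, 0.0756 and 0.0755 TPM in NF-YA cKO and at 10.1, 7.29 and 1.82 TPM in NF-YA fl/fl. NF-YA fl/fl replicate 3 stood low here, and the spread in NF-YA fl/fl (5.56-fold from lowest to highest) was the widest of the 8 genes. The groups did not overlap, and the log2 fold change was -6.36 (SE 0.66, edgeR FDR = 0.000874).

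Myh2, the IIa chain, differed least. It had 5.46, 11.3 and 14.6 expected counts in NF-YA cKO and 85.0, 77.3 and 121 in NF-YA fl/fl, or 0.0334 to 0.0638 TPM and 0.530 to 0.649 TPM. The groups did not overlap, and the log2 fold change was -3.59 (SE 0.38, edgeR FDR = 0.000933). Expected counts are estimates here, because a read that fits several genes is divided between them. The longest coding transcripts of Myh1 and Myh2 (GENCODE M21) were identical at 90.2% of their aligned bases, the closest pair of the cluster. Of all 75-base stretches, the read length, of the Myh2 transcript, 12.6% were also found in Myh1, whose counts in NF-YA fl/fl were 77902 to 91162, and 6.92% in Myh8. What share of the Myh2 counts came from such reads was not tested.

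Both slow chains fell, from a mean of 46.2 TPM for Myh7 and 5.72 TPM for Myh7b in NF-YA fl/fl. Myh7, the slow or beta chain, had 7, 26.8 and 44.9 counts in NF-YA cKO and 8449, 4590 and 8535 in NF-YA fl/fl, which correspond to 0.0430 to 0.196 TPM and 31.6 to 61.2 TPM. Its log2 fold change was -8.54 (SE 0.58, edgeR FDR = 0.000206), the 12th most negative. Myh7b had 3, 9 and 24 counts in NF-YA cKO and 1005, 1161 and 513 in NF-YA fl/fl. NF-YA cKO replicate 1 was at the counting limit of 3, and NF-YA fl/fl replicate 3 was the lowest of its group. The groups did not overlap, and the log2 fold change was -6.61 (SE 0.58, edgeR FDR = 0.000481).

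Myh6, the alpha chain of the heart, was the rarest. It had 1, 1.04 and 0 counts in NF-YA cKO and 30.2, 20.9 and 44.8 in NF-YA fl/fl. The pooled counts, scaled to the library totals, were 59.8-fold higher in NF-YA fl/fl, with an exact 95% interval of 16.1 to 501 that covers counting error only. In the fit the log2 fold change was -5.70 (SE 0.70, edgeR FDR = 0.00155), a call that was lost without NF-YA cKO replicate 2 (FDR = 0.0122, log2 fold change -6.00). The Myh6 transcript was identical to that of Myh7 at 90.7% of aligned bases and shared 15.5% of its 75-base stretches with Myh7, and the counts of Myh7 in NF-YA fl/fl were 4590 to 8535. The 8 cardiomyocyte markers summed to 6.67 to 17.2 TPM in NF-YA cKO and to 2.81 to 7.57 TPM in NF-YA fl/fl. Of the 4 that could be tested, 1, Myl7, was called higher, beside 4.65% of all genes tested. Nppb was at 0.378 to 1.25 TPM in NF-YA cKO and at 0.103 to 0.262 TPM in NF-YA fl/fl, not called (log2 fold change 2.29, edgeR FDR = 0.0224). Of the other markers, Nkx2-5 had at most 0.0268 TPM and Ryr2 at most 0.0109 TPM in any library, and Nppa and Tnni3 stayed at or below 0.679 TPM. Tbx5 ranged from 0.0864 to 0.699 TPM, and Gata4, which other cells also express, from 1.66 to 7.65 TPM, both with overlapping groups.

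The genes kept 1 order of mean TPM in both genotypes, although few neighbors were apart in NF-YA cKO. In NF-YA fl/fl the order in mean TPM was Myh3, Myh1, Myh8, Myh7, Myh4, Myh7b, Myh2 and Myh6. The ranges of Myh3 and Myh1 overlapped, although Myh3 was above Myh1 in each library, and those of Myh4 and Myh7b overlapped with Myh4 above Myh7b in 1 of 3 libraries. All other neighbors in this order were apart. In NF-YA cKO only Myh1 over Myh8 and Myh2 over Myh6 were apart, and the ranges of all other neighbors overlapped.

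The make-up of the residual MyHC mRNA was compared as the share of each class in the summed TPM of a library. Myh3 made up 52.7% to 64.0% in NF-YA cKO and 48.6% to 55.1% in NF-YA fl/fl (p = 0.2 by exact permutation, two-sided, n = 3 and 3). Myh8 made up 4.26% to 9.76% and 7.66% to 9.77% (exact permutation p = 0.3), and the slow genes Myh7 and Myh7b together 3.46% ± 0.843 and 3.39% ± 0.901 (SD, n = 3 each, exact permutation p = 1). The ranges of these classes overlapped. The fast genes made up 34.7%, 29.2% and 26.0% in NF-YA cKO and 37.8%, 34.8% and 35.0% in NF-YA fl/fl. They did not overlap, by a narrow margin (exact permutation p = 0.1, the smallest that 3 against 3 libraries allow). The share of Myh6 was 0% to 0.263% and 0.00855% to 0.0198% (exact permutation p = 0.4). After adjustment over the 5 classes the p-values were 0.5, and 1 for the slow class, in these exact permutation tests.

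**Figure D2:**
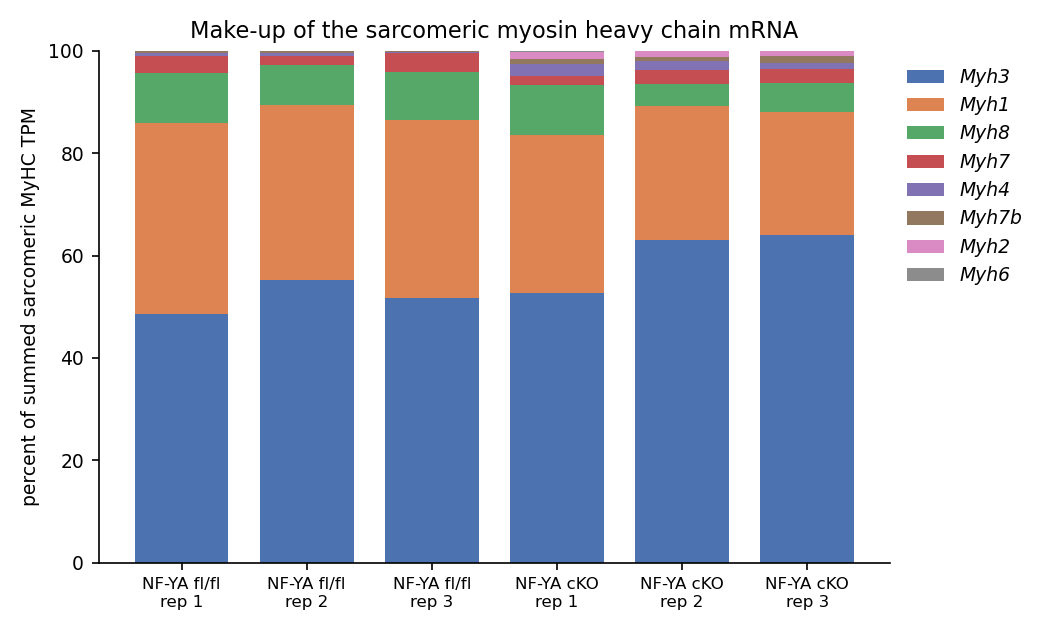
Share of each sarcomeric heavy chain in the summed sarcomeric MyHC TPM of a library, in percent, for the 3 NF-YA fl/fl (left) and 3 NF-YA cKO (right) libraries. Myh3 and Myh1 take most of each bar in both genotypes, while the thin upper bands of Myh4, Myh7b and Myh2 are wider in NF-YA cKO.

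The fast class was not uniform. Myh1 took 24.0% to 30.9% of the summed TPM in NF-YA cKO and 34.4% to 37.2% in NF-YA fl/fl, whereas Myh2 took 0.933% to 1.42% and 0.0319% to 0.0536%, and Myh4 1.11% to 2.36% and 0.151% to 0.568%. Each gene was therefore also set against Myh3 in the same library. Relative to Myh3, Myh2 was at 2.69%, 1.73% and 1.46% in NF-YA cKO and at 0.0707%, 0.0578% and 0.104% in NF-YA fl/fl, a difference in log2 ratio of 4.66. Myh4 was at 1.73% to 4.48% and 0.292% to 1.17% (2.13 on the log2 scale), and Myh7b at 1.27% to 2.28% and 0.419% to 0.828% (1.34). These 3 ratios did not overlap, with all NF-YA cKO libraries on the upper side. Myh1 was at 37.5% to 58.6% of Myh3 in NF-YA cKO and at 62.3% to 76.7% in NF-YA fl/fl (-0.61), also without overlap. The ratios of Myh8, Myh7 and Myh6 to Myh3 overlapped between the genotypes. In exact permutation tests p was 0.1 for each of the 4 ratios that did not overlap, and 0.175 after adjustment over the 7 ratios. The counts behind the NF-YA cKO ratios are small, 5.46 to 14.6 for Myh2, 9 to 19.1 for Myh4 and 3 to 24 for Myh7b.

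**Figure D3:**
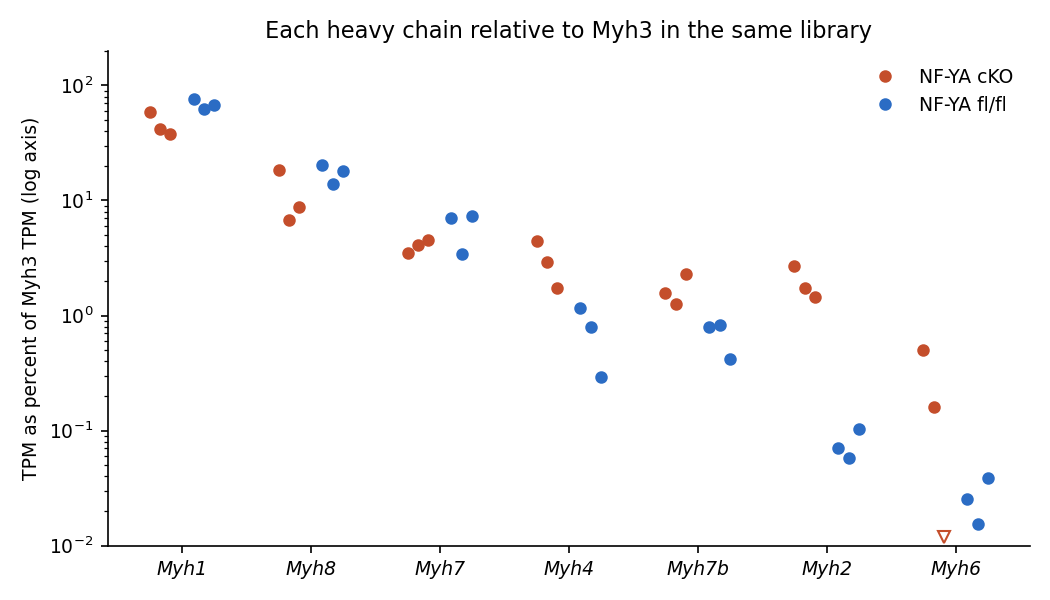
TPM of each sarcomeric heavy chain as a percent of Myh3 TPM in the same library (log axis), for the 3 NF-YA cKO (red) and 3 NF-YA fl/fl (blue) libraries, with an open triangle for a value of 0. The NF-YA cKO points of Myh4, Myh7b and Myh2 sit above the NF-YA fl/fl points, those of Myh1 below, and Myh8, Myh7 and Myh6 overlap.

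The NF-YA cKO libraries also differed among themselves. Replicate 3 had the highest and replicate 1 the lowest TPM for Myh1, Myh2, Myh3, Myh7 and Myh7b, with 2.26-fold between these libraries for Myh1, 1.91-fold for Myh2, 3.53-fold for Myh3, 4.57-fold for Myh7 and 5.16-fold for Myh7b. For Myh8 the lowest was replicate 2 and the highest replicate 3, 2.23-fold apart, and Myh4 varied 1.36-fold. The macrophage markers ran the other way, with 263, 237 and 136 TPM in replicates 1, 2 and 3, and their part was not tested. In NF-YA fl/fl the highest and lowest libraries differed 1.58-fold for Myh1, 1.22-fold for Myh2 and 1.47-fold for Myh3. They differed 1.94-fold for Myh7, 2.90-fold for Myh7b and 1.54-fold for Myh8. Each was less than in NF-YA cKO, whereas Myh4 varied more, 5.56-fold. The NF-YA cKO ranges of Myh2 (5.46 to 14.6 counts), Myh7 (7 to 44.9) and Myh7b (3 to 24) rest on small counts. Over all genes tested, the biological coefficient of variation, edgeR's measure of spread between replicates, went the other way. It was 0.105 in NF-YA cKO and 0.310 in NF-YA fl/fl.

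Only Myh1 and Myh3 had enough counts in every library to compare transcripts. For Myh1 the files list a transcript of 6019 nt and another of 6020 nt. The shorter took 33.5%, 100% and 85.8% of the gene's TPM in NF-YA cKO and 82.7% to 87.2% in NF-YA fl/fl (p = 0.8 by exact permutation, two-sided, n = 3 and 3). For Myh3 the transcript of 6063 nt took 83.7% to 100% in NF-YA cKO and 91.8% to 99.8% in NF-YA fl/fl (exact permutation p = 0.9), the rest going to one of 5992 nt. The ranges overlapped in both genes. Myh2, Myh4 and Myh8 have 1 transcript in the files, and Myh6, Myh7 and Myh7b had fewer than 20 counts in at least 1 library.

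The other class II heavy chains were set beside the 8 genes, although Myh13 and Myh15 among them are sarcomeric chains too. Myh9 and Myh10, the nonmuscle chains of the cell cortex and stress fibers, were at 255 to 307 TPM against 270 to 387 TPM, and at 26.0 to 38.3 TPM against 13.5 to 34.5 TPM, for the deleted against the control genotype. Both overlapped, with log2 fold changes of -0.08 (SE 0.10, edgeR FDR = 0.564) and 0.58 (SE 0.21, FDR = 0.0626). Myh11, the smooth muscle chain, and Myh14, a further nonmuscle chain, were not called either (0.76, SE 0.79, and -1.45, SE 0.55), and Myh15 had too few counts to be tested. Myh13, the extraocular chain that follows Myh8 on chromosome 11, was called lower (-4.99, SE 0.56, edgeR FDR = 0.00118) from 0 to 0.00828 TPM in NF-YA cKO and 0.168 to 0.203 TPM in NF-YA fl/fl, and passed the filter only through NF-YA fl/fl. The 8 genes, without Myh13 and Myh15, made up 0.670%, 1.42% and 2.04% of all class II heavy chain TPM in NF-YA cKO and 84.3%, 79.7% and 80.9% in the NF-YA fl/fl libraries (p = 0.1 by exact permutation, two-sided, again the smallest possible).

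The MyHC level was also set against the SC and myoblast markers of the same library, a ratio in which RNA of other cell types that lack both does not enter. The summed MyHC TPM was 0.00502, 0.00863 and 0.0134 of the summed marker TPM in NF-YA cKO and 4.32, 3.88 and 1.44 in NF-YA fl/fl. The groups were apart, with a difference of -8.44 in the mean log2 ratio (exact permutation p = 0.1), or -7.98 without Myod1, the most abundant marker. NF-YA fl/fl replicate 3 had the lowest ratio of its group and the highest Myod1 level, 632 TPM against 240 TPM in each of the others.

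Partners of the heavy chains in the thick filament and M-band fell with them. Of 22 listed genes, 19 were tested, 18 were called lower and none higher, beside 7.67% lower and 4.65% higher of all genes tested, with a median log2 fold change of -5.72. Of the 17 that passed the filter in NF-YA cKO, 17 were called lower, beside 6.06% of all genes that did so. The most abundant were the myosin light chains Mylpf (8.64 to 26.4 TPM in NF-YA cKO and 1210 to 2457 TPM in NF-YA fl/fl, log2 fold change -6.67, SE 0.49), Myl1 (3.79 to 6.92 and 849 to 1583 TPM, -7.91, SE 0.35) and Myl4, the embryonic and atrial light chain (3.83 to 9.02 and 691 to 1241 TPM, -7.32, SE 0.51). None of these groups overlapped. Titin (Ttn), the spring that spans from Z-disc to M-band, was at 6.89 to 14.8 TPM and 355 to 495 TPM (-5.30, SE 0.35), and Mybph, a myosin-binding protein, at 0.842 to 1.90 TPM and 186 to 277 TPM (-7.35, SE 0.36). Murc (Cavin4), a muscle protein of caveolae rather than of the filament, changed by -4.69 (SE 0.37). Each of these 6 genes had an edgeR FDR of at most 0.000337. Myl2, the slow regulatory light chain, was the 1 tested gene not called (-3.86, SE 0.90, FDR = 0.0150).

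**Figure D4:**
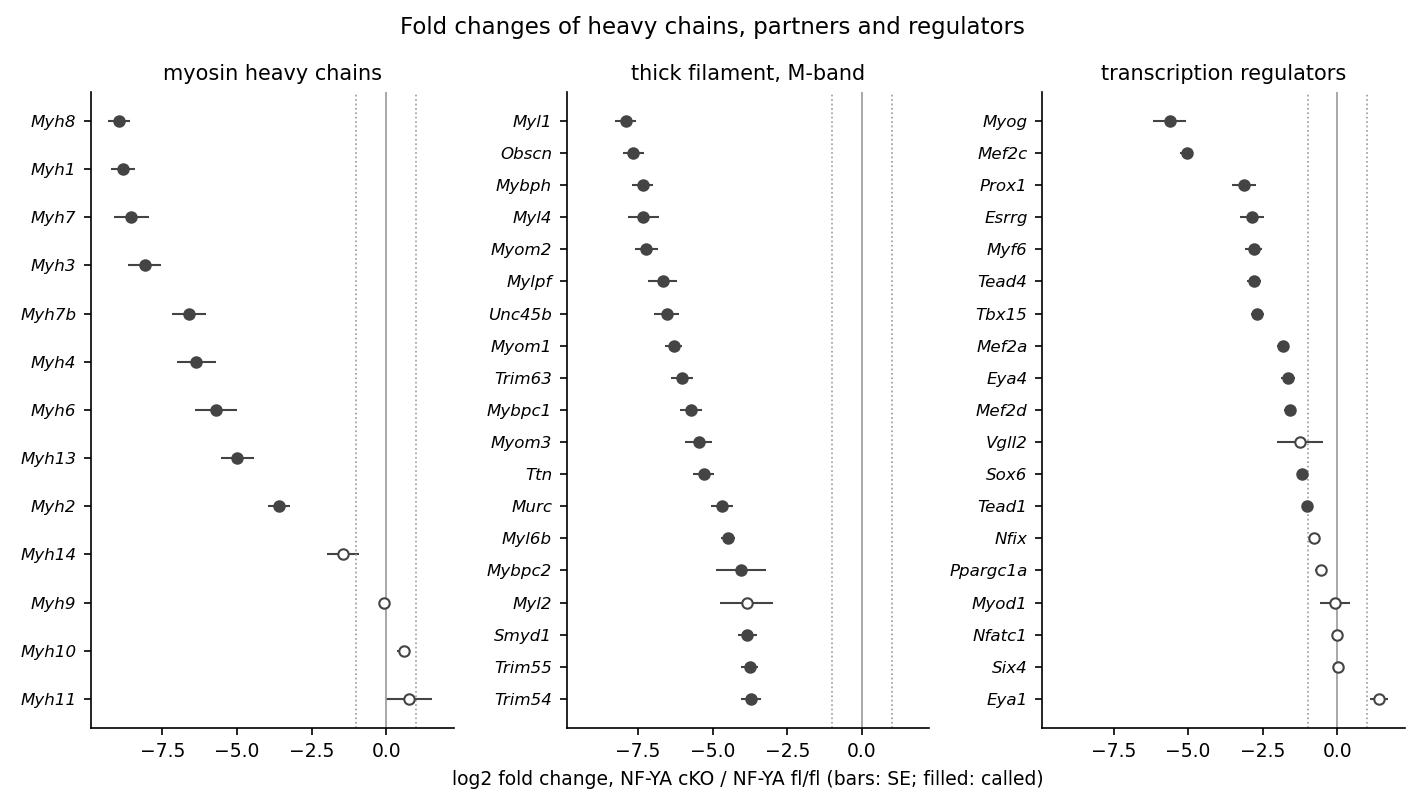
Log2 fold change, NF-YA cKO over NF-YA fl/fl, with its SE (bars), for the sarcomeric and other class II heavy chains, the tested thick filament and M-band genes, and 19 of the 20 transcription regulators. Filled points were called, dotted lines mark -1 and 1. The 8 sarcomeric heavy chains examined lie between -8.96 and -3.59, and Myh9, Myh10 and Myh11 near or above 0.

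Of 20 transcription regulators of MyHC and fiber type genes, all tested, 12 were called lower, none higher, and 8 were not called, beside 7.67% lower and 4.65% higher of all genes tested, with a median log2 fold change of -1.43. Without NF-YA cKO replicate 2, 7 were called lower. Myog, the factor of terminal differentiation, was at 9.30, 13.8 and 26.3 TPM in NF-YA cKO and at 825, 610 and 1026 TPM in NF-YA fl/fl (-5.62, SE 0.54, edgeR FDR = 0.000683). Mef2c, which acts with the MyoD family on muscle genes, was at 1.22 to 1.69 TPM and 49.2 ± 11.3 TPM (SD, n = 3) in the other genotype (-5.05, SE 0.21, FDR = 5.06e-05). Both were without overlap. Mef2a (24.1 to 35.4 TPM and 101 to 111 TPM, -1.82, SE 0.21, FDR = 0.00118) and Tead1 (27.5 to 39.9 TPM and 53.6 to 78.0 TPM, -1.03, SE 0.12, FDR = 0.00125) fell less. Myod1, the determination factor, was at 344, 360 and 367 TPM in NF-YA cKO and at 240, 240 and 632 TPM in NF-YA fl/fl, with overlapping groups (-0.08, SE 0.49, FDR = 0.908).

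Noncoding transcripts of the MyHC loci were mostly too rare to compare. The long noncoding RNA 2310065F04Rik, between Myh3 and Myh2 on the minus strand, had 0 counts in all 3 NF-YA cKO libraries and 41, 40 and 24 in NF-YA fl/fl. Against a limit of 3 counts over the NF-YA cKO libraries together, it was at least 43.6-fold lower in NF-YA cKO (edgeR FDR = 0.00192), and it passed the filter only through NF-YA fl/fl, so that it could be tested only because it was high there. Gm12300 had 0 counts in NF-YA cKO and 3, 3 and 4 in NF-YA fl/fl, and Gm12295, which lies outside the cluster, at most 3 counts in a library. Mir208a, Mir208b and Mir499, in introns of Myh6, Myh7 and Myh7b, are listed at 0 in every library, and their entries of 77 to 83 nt are too short for these fragments to be assigned. Of the transcripts antisense to exons of the 8 genes, Gm31251, opposite Myh7, had 12, 7.15 and 15.2 counts in NF-YA cKO and 65.5, 88.0 and 72.5 in NF-YA fl/fl and was called lower (log2 fold change -3.07, edgeR FDR = 0.00104). Mhrt, also opposite Myh7, had 0 counts in NF-YA cKO and 2.13 to 4.30 in NF-YA fl/fl. Whether the counting used the strand of the reads is not given in the sources used here, so reads of Myh7 and of these transcripts may not be separate.

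Genes next to the 3 loci were counted by their calls, beside 7.67% called lower and 4.65% called higher of all genes tested. Within 500 kb of the chromosome 14 pair, 28 other genes were tested, of which 4 were called lower, 1 higher and 23 not called, with a median log2 fold change of 0.13. Around Myh7b, 24 were tested, with 4 lower, 20 not called and a median of 0.01. Around the chromosome 11 cluster, 7 were tested, with 3 lower, 1 higher and 3 not called and a median of -1.53. The 3 lower genes were Myh13, 2310065F04Rik and Dhrs7c (-9.08, SE 0.61, edgeR FDR = 0.000185), a reductase of the sarcoplasmic reticulum, the higher one was Gas7 (1.12, SE 0.20, FDR = 0.00612), and Sco1, Adprm and Tmem220 were not called. These genes were named after their values were seen.

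The genes with a pattern over the 6 libraries nearest to the summed MyHC counts were sought among 9449 tested genes (mean CPM of 10 or more, no library at 0) by the root mean square difference of centered log2 CPM. They were Frem2, an extracellular matrix protein (0.15 on the log2 scale), Hrc, a calcium-binding protein of the sarcoplasmic reticulum (0.18), Cacna1s, the pore of the skeletal muscle calcium channel (0.21), Actn2, the alpha-actinin of the Z-disc (0.24), and Casq2, calsequestrin of the sarcoplasmic reticulum (0.30). Frem2 was at 0.0237, 0.0306 and 0.0652 TPM in NF-YA cKO and at 14.4, 14.7 and 10.7 TPM in NF-YA fl/fl. Actn2, the most abundant of the 5, was at 0.321, 0.715 and 0.951 TPM and at 200, 185 and 167 TPM. All 5 were chosen by their likeness over these same libraries, so their fold changes are no separate evidence.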

How the data were processed

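RNA-seq libraries of cultured SCs, 3 of each genotype, were analyzed. The authors aligned paired reads of 75 nt from stranded libraries (500 ng total RNA) to mm10 with bowtie2 (version not given in the sources used here) and quantified genes with RSEM. The deposited expected counts are estimates that need not be whole, and the deposited TPM values are scaled per length and to 1 common sum. TPM was recomputed from the deposited transcript counts to keep low values (largest difference 0.04 for the 8 genes). FPKM and percent columns deposited by the authors were not used. Groups came from the labels, which do not say whether the samples are separate cultures of separate mice, so p-values measure only the spread between them.

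Expected counts were rounded, and genes above 10 counts in 2 or more libraries (17348 of 35976) were tested with edgeR 4.0.16 (TMM, quasi-likelihood, genotype only) in R 4.3.3, with the study's thresholds. Shares and ratios were compared by exact permutation (scipy 1.17.1). Library totals of 26936230 to 41118984 counts set the precision, and intervals cover counting error only. The edgeR fit was tested on simulated data. Alternatives were DESeq2 1.42.0, its size factors, filterByExpr, no filter, limma 3.58.1 on log2(TPM + 1) and log2(TPM + 0.1), unrounded counts, an FDR limit of 0.05, glmTreat at a log2 fold change of 1, a replicate block, and leaving out each library. Motifs were searched in 27025 RefSeq windows. The 8 genes are all named, as is every gene of a list of at most 8, otherwise the 6 with the highest mean TPM, and the 5 genes nearest in pattern, except that 1 of these is not reported here. The members and lists were chosen with earlier results of these data known.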

Additional observations from a re-analysis of the deposited data

How the results depend on the processing

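The 8 log2 fold changes kept their direction in all 16 alternatives, and 6 genes were called in each. Myh2 and Myh6 were not called on log2(TPM + 1), where low levels are compressed (-0.61, FDR = 0.00117, and -0.26, FDR = 0.0192), and Myh6 not without NF-YA cKO replicate 2 (-6.00, FDR = 0.0122), with FDR between 2.69e-06 and 0.0192 for Myh6 and between 1.73e-14 and 0.00888 for Myh2 over the alternatives. The number of MyHC genes called was therefore 6 of 8 on log2(TPM + 1) and otherwise 7 or 8. Leaving out single libraries moved the log2 fold change of Myh3 between -8.57 and -7.76, Myh8 between -9.36 and -8.76, Myh1 between -9.15 and -8.58, Myh7 between -9.11 and -8.21, Myh7b between -7.53 and -6.28, Myh4 between -6.76 and -5.79, Myh6 between -6.17 and -5.15 and Myh2 between -3.89 and -3.37.

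The number of genes called in the whole table, 2137, was 935 on log2(TPM + 1), 607 in the test against a log2 fold change of 1, and 700 to 2538 with single libraries left out, lowest without NF-YA cKO replicate 2. The share of lower among called genes, 62.3%, was 75.3% on log2(TPM + 1), 74.7% on log2(TPM + 0.1) and 84.0% in the test against a log2 fold change of 1. Of the regulators, 6 were called lower in that test and 7 without NF-YA cKO replicate 2 (7 to 12 over the libraries left out), and Eya1 was called higher by DESeq2, with no filter, at an FDR under 0.05 and without NF-YA fl/fl replicate 3 (0 to 1). On log2(TPM + 1) neither Myh13 nor 2310065F04Rik was called. In expected counts the share of the 8 genes in class II differed by -77.1 percentage points in place of -80.3. The slow class share, higher by 0.07 percentage points in NF-YA cKO, was lower without NF-YA cKO replicate 3 (-0.37) or NF-YA fl/fl replicate 2 (-0.45), and ranged from -0.45 to 0.48 over the libraries left out. The cause of these shifts was not tested.

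Replicate numbers are shared by the labels only. Deviations of same-numbered libraries correlated at 0.17, -0.07 and 0.05, and those of libraries with unlike numbers at -0.14 to 0.10. With 3 libraries per genotype this cannot decide whether the numbers pair the samples. With the replicate block 8 of 8 MyHC genes and 1572 genes of the table were called. In NF-YA cKO the depth limits Myh6, at 0 or 1 counts, and Myh7b, Myh2 and Myh4, at 3 to 24 counts.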
